A study of Mus musculus with 74 samples.

Results

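The 9 genes described here, *Ehhadh*, *Acaa1a*, *Acaa1b*, *Hsd17b4*, *Crot*, *Pex11a*, *Abcd2*, *Abcd3* and *Ech1*, encode proteins of peroxisomal fatty acid oxidation and were selected by symbol, with no measured value in the rule. All 9 were among the 14583 genes of the RNA-seq table, and the peaks named for them in the ChIP-seq tables numbered from 35 of 31434 for RNA polymerase II to 102 of 115042 for NCOR. The data come from livers of C57BL/6 mice, labelled 8 to 12 weeks old and kept on normal chow diet. *Gps2* LKO mice carry floxed *Gps2* alleles and a Cre recombinase under the albumin promoter, which acts in hepatocytes, and the mice called WT, from the same breeding, carry the floxed alleles without Cre. *Ncor* LKO and *Smrt* LKO are liver-specific knockouts of the corepressors NCOR and SMRT, each with WT mice of its own line, and *Pparα* KO mice lack PPARα in the whole body and were compared with WT mice of their line. The RNA-seq analysed here is of the *Gps2* line, with 4 WT and 4 LKO libraries. ChIP-seq for PPARα, GPS2, NCOR, RNA polymerase II and the histone marks H3K27ac and H3K4me3 had 1 to 3 libraries per group, each made from several pooled immunoprecipitations. The histone mark libraries of the *Gps2* line are named as fed, and the names of the other libraries give no feeding state.

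Peroxisomes shorten very long chain fatty acids by β-oxidation. ABC transporters of the peroxisomal membrane bring the acyl-CoA in, an oxidase starts each round, a bifunctional enzyme hydrates and dehydrogenates the product, and a thiolase releases acetyl-CoA. The shortened chains leave as carnitine esters for the mitochondria. PPARα is a fatty acid-activated nuclear receptor of hepatocytes that binds as a heterodimer with RXR to a direct repeat of AGGTCA spaced by 1 base (DR1), and genes of peroxisomal oxidation are its classical targets in rodent liver. GPS2 is a subunit of the corepressor complex that contains NCOR or SMRT and histone deacetylase 3, and this complex represses nuclear receptor targets. The comparisons below address whether loss of GPS2, NCOR, SMRT or PPARα moves the expression of these genes, the occupancy of PPARα, GPS2 and NCOR around them, and their active histone marks.

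RNA-seq libraries held 13.2 to 20.1 M reads assigned to genes, and ChIP-seq libraries 7.90 to 46.1 M tags. The targeted gene was checked first. *Gps2* RNA was 16.4, 15.8, 16.7 and 15.1 CPM (counts scaled to library size) in the WT libraries and 12.7, 9.87, 9.17 and 12.9 in the LKO libraries, so every LKO library lay below every WT library, and the log2 fold change was -0.53 (SE 0.112, adjusted p = 0.0021 by the edgeR quasi-likelihood test). GPS2 ChIP-seq had 7.07% of tags in peaks in WT and 0.310% in *Gps2* LKO. Libraries of some groups stood apart: PPARα ChIP-seq had 19.2 to 21.9% of tags in peaks in the WT of the *Gps2* line against 28.9 to 32.1% in LKO, WT replicate 3 of the *Ncor* line had fewer tags in peaks than the other WT libraries of that line (8.96% against 18.6 and 19.3% for PPARα, 3.07% against 7.82 and 8.23% for GPS2), and GPS2 replicate 3 of the *Pparα* line had 4.39% in WT and 1.07% in KO. The 3 PPARα libraries of WT mice of the *Gps2* line differed by less than the sampling noise and were counted as 1 sample. *Gps2* LKO replicate 2 of the RNA-seq differed most from the other LKO libraries. Hepatocyte markers were abundant in every RNA-seq library, with a summed level of 107602 to 111524 CPM in WT and 145244 to 173106 in LKO (3 of 6 higher, none lower). Summed markers of other cell types were also higher in LKO, at 177 to 185 CPM in WT against 332 to 342 in LKO for stellate cells (6 of 6 markers called higher), 136 to 140 against 179 to 209 for Kupffer cells and macrophages (6 of 7), 64.4 to 68.8 against 91.2 to 112 for cholangiocytes (3 of 5), 104 to 111 against 115 to 126 for endothelial cells (2 of 5) and 5.52 to 6.60 against 8.49 to 9.46 for lymphocytes (1 of 5). Their part in the changes below was not tested, and bulk RNA cannot tell fewer cells of a type from less RNA per cell. P-values measure the spread between these libraries, which the study describes as biological replicates and the labels do not tie to single mice.

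Loss of hepatocyte *Gps2* split the 9 genes. *Abcd2*, *Acaa1b*, *Ech1* and *Acaa1a* rose, *Pex11a*, *Crot* and *Hsd17b4* fell, and *Ehhadh* and *Abcd3* did not pass the test. The 4 higher and 3 lower calls compare with 23.4% of the 12220 tested genes called higher and 21.4% called lower, or 44.8% in either direction, and the median log2 fold change of the 9 genes was 0.11 against 0.03 over all genes. When the relation of fold change to exon length was removed within the fit, *Acaa1a* (0.07, adjusted p = 0.41) and *Ech1* (0.022, adjusted p = 0.73) were no longer called, *Ehhadh* was called higher (0.11, adjusted p = 0.037) and the other 6 kept their calls and directions, with 21.7% of all genes called higher and 22.1% lower in that fit.

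Of the importers of very long chain acyl-CoA, *Abcd2* (mm9 chr15:90976315-91022238, minus strand) showed the largest change of the 9 genes. Its level was 19.9, 21.3, 21.5 and 22.8 CPM in WT and 63.3, 68.4, 64.1 and 64.9 in *Gps2* LKO. All 4 LKO libraries were above all 4 WT libraries by a wide margin. The rise was 3.05-fold in CPM, with a log2 fold change of 1.61 (SE 0.070, adjusted p = 7.61e-10, edgeR). Per exon length *Abcd2* was also the lowest of the 9 genes, at 3.86 ± 0.218 RPKM (SD, n = 4) in WT and 11.8 ± 0.404 in LKO. *Abcd3* (chr3:121461827-121518220), which encodes the major membrane transporter PMP70 for branched and long chain acyl-CoA, was the highest in WT at 239 ± 2.54 RPKM. Its CPM of 804, 809, 812 and 824 in WT overlapped those of LKO, at 806, 872, 820 and 837, and the log2 fold change was 0.038 (SE 0.050, adjusted p = 0.56, edgeR).

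The bifunctional enzymes differed little between groups. *Ehhadh* (chr16:21761360-21787917, minus strand), the L-bifunctional enzyme, had 198, 203, 201 and 204 CPM in WT and 215, 226, 215 and 218 in LKO. The LKO libraries lay above the WT libraries without overlap, but the log2 fold change of 0.11 (SE 0.052) did not pass the test with the default scaling (adjusted p = 0.090, edgeR). *Hsd17b4*, the D-bifunctional enzyme that handles branched chains and bile acid intermediates, had 427, 413, 415 and 437 CPM in WT and 377, 345, 404 and 371 in LKO. Every LKO library was lower, the log2 fold change was -0.18 (SE 0.059, adjusted p = 0.0255, edgeR), and the call was lost without WT replicate 1, 3 or 4 or LKO replicate 4, with values of -0.22 to -0.16 over all single omissions.

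The thiolase copies differed in size of change. *Acaa1b* (chr9:119057141-119066211, minus strand) had 370, 362, 348 and 363 CPM in WT and 823, 613, 819 and 807 in LKO. LKO replicate 2 was the lowest LKO library and still lay above every WT library. *Acaa1b* rose 2.12-fold, with a log2 fold change of 1.09 (SE 0.084, adjusted p = 3.77e-07, edgeR). *Acaa1a* (chr9:119250412-119259413, plus strand) had 102, 106, 102 and 103 CPM in WT and 125, 97.1, 140 and 127 in LKO, so that LKO replicate 2 lay below the WT range. Its log2 fold change of 0.24 (SE 0.092, adjusted p = 0.048, edgeR) was lost in 12 of the 14 alternatives, among them DESeq2 and the omission of any WT library. *Acaa1a* and *Acaa1b* are near-identical copies on chromosome 9, reads may have been assigned to either, and the split between them is uncertain.

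*Ech1* (chr7:29610236-29617266), the dienoyl-CoA isomerase that prepares unsaturated chains for oxidation, had 200, 189, 188 and 191 CPM in WT and 253, 212, 214 and 255 in LKO. LKO was above WT in all libraries, and the log2 fold change was 0.28 (SE 0.071, adjusted p = 0.0064, edgeR), a call that was lost with the exon length correction given above. *Crot* (chr5:8966033-8997324), the carnitine octanoyltransferase that converts shortened acyl-CoA for export, had 346, 362, 359 and 364 CPM in WT and 286, 288, 279 and 285 in LKO. The groups did not overlap, the spread within LKO was small at 285 ± 3.95 (SD, n = 4), and the log2 fold change was -0.33 (SE 0.051, adjusted p = 2.12e-04, edgeR). *Pex11a* (chr7:86880843-86888017), which acts in elongation and division of peroxisomes, had 29.2, 28.1, 26.1 and 25.4 CPM in WT and 14.3, 20.5, 20.1 and 14.7 in LKO. It showed the largest fall, with a log2 fold change of -0.63 (SE 0.117, adjusted p = 8.93e-04, edgeR).

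**Figure D1:**
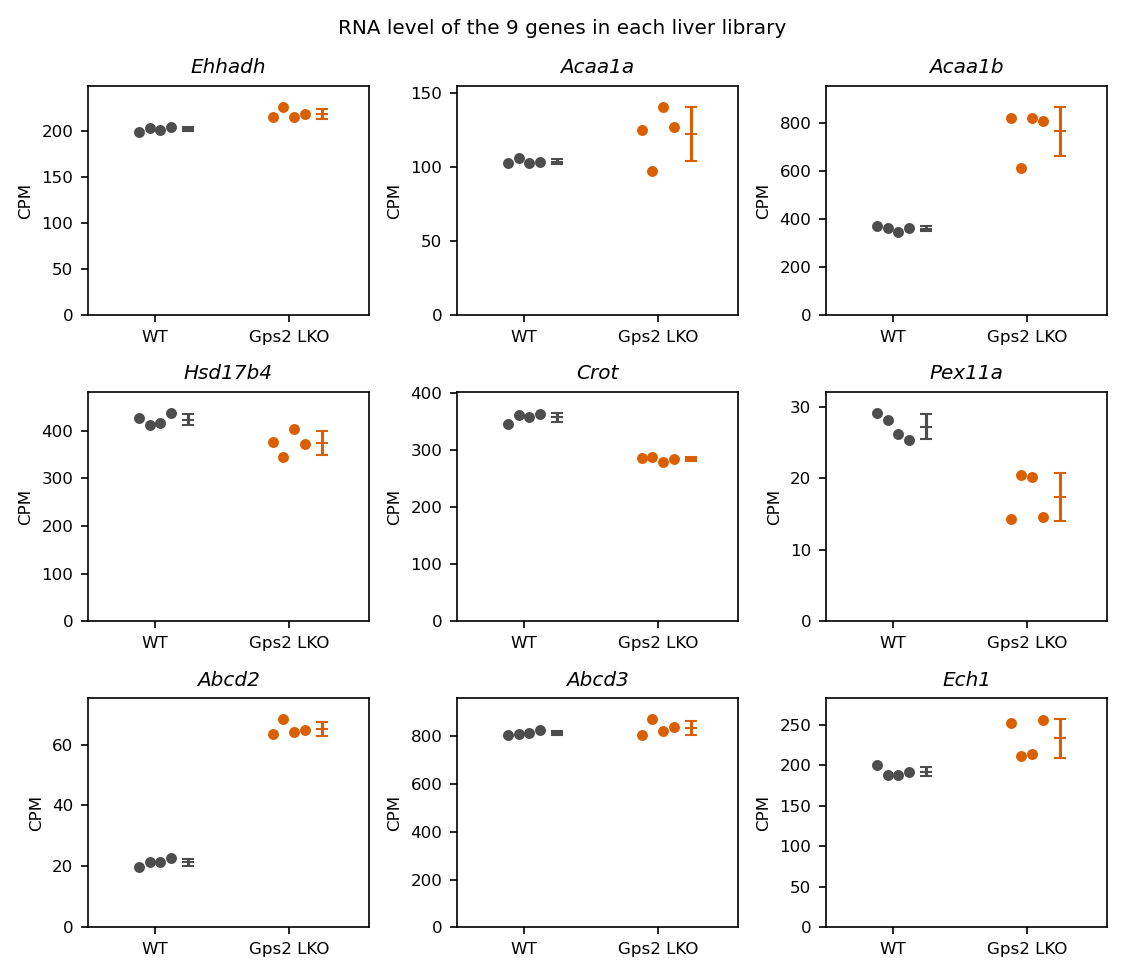
RNA level (CPM, vertical axis from 0) of each of the 9 genes in the 4 WT and 4 *Gps2* LKO libraries. Points are libraries and bars give mean ± SD; *Abcd2* rose from 21.4 ± 1.21 to 65.2 ± 2.24 and *Acaa1b* from 361 ± 9.36 to 765 ± 102, while *Crot* and *Pex11a* fell without overlap.

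The genes of the receptor and of a corepressor were read beside these genes. *Ppara* was 335 ± 14.7 CPM in WT and 256 ± 62.6 in LKO (log2 fold change -0.39, SE 0.123, adjusted p = 0.0205, edgeR), with LKO replicate 2 at 349, level with the highest WT library at 349. With the exon length correction the *Ppara* call was lost (-0.13, adjusted p = 0.070). The corepressor gene *Ncor1* was also lower in LKO, at 112 CPM in WT and 72.0 in LKO (log2 fold change -0.63, adjusted p = 0.0021, edgeR, and -0.26, adjusted p = 6.09e-04, with the correction).

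Other peroxisomal genes divided in both directions as well. Of a list of 61, 59 were in the table and 58 were tested. Of these, 14 rose, 16 fell and 28 did not pass (10 rose and 21 fell with the exon length correction). Over all tested genes 23.4% were called higher and 21.4% lower (21.7% and 22.1% with the correction). The median log2 fold change was 0.03 for the list and 0.03 over all genes. The largest rises were *Hao2*, an oxidase of 2-hydroxy acids (0.195 ± 0.0973 to 19.9 ± 2.77 CPM, SD, n = 4, log2 fold change 6.60), *Acot4*, a peroxisomal acyl-CoA thioesterase (1.27), and *Agxt*, the alanine-glyoxylate aminotransferase (0.77). The largest falls were *Acox2*, the oxidase of bile acid intermediates (-0.69), *Acox3*, an oxidase of branched chains (-0.62), and *Nudt12*, a peroxisomal nucleotide hydrolase (-0.55). Of 16 tested genes of mitochondrial β-oxidation 5 rose, 3 fell and 8 did not pass, against 1 that rose and 5 that fell with the exon length correction. The genes whose level followed *Ehhadh* most closely over the 8 RNA-seq libraries were *Slc2a2*, *Itih2* and *Prlr*, each with a Pearson r of 0.983, then *Olfml1* (0.980) and *Mug2* (0.978), among 8526 genes compared. These correlations include the difference between the groups and are given as a description.

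For PPARα, the peak with the most tags within 50000 bp of the transcription start site (TSS) was taken for each gene from the PPARα table of the *Ncor* line. Positions are in mm9, and levels at these lead sites in that table are a description, since they chose the sites. The lead sites lay in introns of *Ehhadh* (chr16:21782995-21783172, 4824 bp downstream of the TSS, intron 1), *Acaa1a* (chr9:119251939-119252119, intron 3), *Hsd17b4* (658 bp downstream, intron 1), *Pex11a* (chr7:86885278-86885454, intron 1) and *Abcd2* (chr15:91010440-91010638, 11899 bp downstream, intron 3). They were intergenic for *Acaa1b* (chr9:119073942-119074114, -7817 bp from the TSS), *Crot* (chr5:9034664-9034865, -37618 bp) and *Abcd3* (chr3:121555093-121555378, -37015 bp), and in the promoter for *Ech1* (chr7:29610020-29610230, -232 bp). Lead sites beyond the promoter were given to a gene by the nearest TSS in the deposited table. In the WT mice of the *Ncor* line the highest was *Acaa1b*, at 135, 142 and 91.3 tags per 10000000 total tags, followed by *Crot*, at 125, 116 and 68.5, and *Ehhadh*, at 118, 116 and 68.0, which lay within the spread of each other. *Pex11a* was the lowest, at 17.9, 10.7 and 5.71.

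Sequences are shown for the lead sites of the gene that changed little (*Ehhadh*), the genes that rose most (*Acaa1b* and *Abcd2*) and those that fell most (*Crot* and *Pex11a*), with the stretch closest to DR1 (AGGTCA, any base, AGGTCA) in capitals, on the strand that carries it (at *Ehhadh* and *Acaa1b* 1 of 4 stretches that were equally close).
Ehhadh lead site, chr16:21782995-21783172, minus strand: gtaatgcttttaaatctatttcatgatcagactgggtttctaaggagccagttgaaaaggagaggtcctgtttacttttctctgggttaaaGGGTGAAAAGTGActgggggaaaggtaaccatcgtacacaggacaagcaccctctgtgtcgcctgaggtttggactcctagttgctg
Acaa1b lead site, chr9:119073942-119074114, plus strand: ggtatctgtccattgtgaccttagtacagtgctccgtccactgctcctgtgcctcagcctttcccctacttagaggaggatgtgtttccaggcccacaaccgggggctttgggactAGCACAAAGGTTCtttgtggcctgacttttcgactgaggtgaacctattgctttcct
Abcd2 lead site, chr15:91010440-91010638, plus strand: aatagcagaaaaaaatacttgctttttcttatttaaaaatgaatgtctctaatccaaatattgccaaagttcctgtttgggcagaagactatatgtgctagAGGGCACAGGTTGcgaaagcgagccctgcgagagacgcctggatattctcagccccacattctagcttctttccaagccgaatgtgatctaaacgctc
Crot lead site, chr5:9034664-9034865, minus strand: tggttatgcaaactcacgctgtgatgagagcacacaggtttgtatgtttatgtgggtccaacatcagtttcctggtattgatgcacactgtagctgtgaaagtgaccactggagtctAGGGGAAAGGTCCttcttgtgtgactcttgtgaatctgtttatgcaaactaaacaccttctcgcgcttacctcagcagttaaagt
Pex11a lead site, chr7:86885278-86885454, plus strand: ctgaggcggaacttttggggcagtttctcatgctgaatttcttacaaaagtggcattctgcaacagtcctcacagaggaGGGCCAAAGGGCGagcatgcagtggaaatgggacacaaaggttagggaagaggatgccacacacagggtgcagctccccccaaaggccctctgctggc
With positions counted from 1 at the 5′ end of the motif, the best stretch differed from DR1 by A1G, C5G, G9A and C12G at *Ehhadh*, G3C, T4A, C12T and A13C at *Acaa1b*, T4G, C12T and A13G at *Abcd2*, T4G, C5G and A13C at *Crot*, and A1G, T4C, T11G and A13G at *Pex11a*. In windows of 201 bp around the peak centre, searched on both strands, no lead site held DR1 with at most 1 mismatch in its 12 fixed bases, a match found in 2.53% of all 86059 PPARα peaks searched. At most 2 mismatches were met at 1 of 9 lead sites, that of *Acaa1a* (11.2% of all peaks), at most 3 at 5 of 9 (37.4%) and at most 4 at 9 of 9 (81.7%). These are matches of letters in a window, not mapped binding sites. The *Acaa1a* match lay inside the window but began at chr9:119251937, before the start of the lead site at chr9:119251939.

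PPARα at these sites was first read against *Pparα* KO. In this line 28 of 55 peaks of the 9 genes were lower in KO and none higher by edgeR, with 27.6% of all 40253 peaks called lower and 0.0174% higher, and the median log2 fold change was -2.61 against -1.68 over all peaks. PPARα at the *Ehhadh* lead site was 53.8 and 61.2 tags per 10000000 in WT against 3.43 and 2.20 in KO (log2 fold change -4.30, SE 0.316, adjusted p = 1.23e-06). At *Acaa1b* it was 41.1 and 36.7 in WT against 0 and 2.20 in KO (-5.08, SE 0.499, adjusted p = 8.68e-06). At *Crot* it was 35.4 and 39.0 in WT against 6.87 and 2.93 in KO (-2.88, adjusted p = 2.61e-05). In 8 of the 9 genes the lead site was called lower, by -2.66 at *Abcd3* to -5.08 at *Acaa1b*. The exception was *Pex11a*, at 2.83 and 1.53 in WT against 2.06 and 0.733 in KO (-0.61, SE 0.914, adjusted p = 0.63), where the groups overlapped and the WT level was low. With 2 libraries per group all 28 calls were lost without either WT library, and none of the 28 remained with a replicate block.

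**Figure D2:**
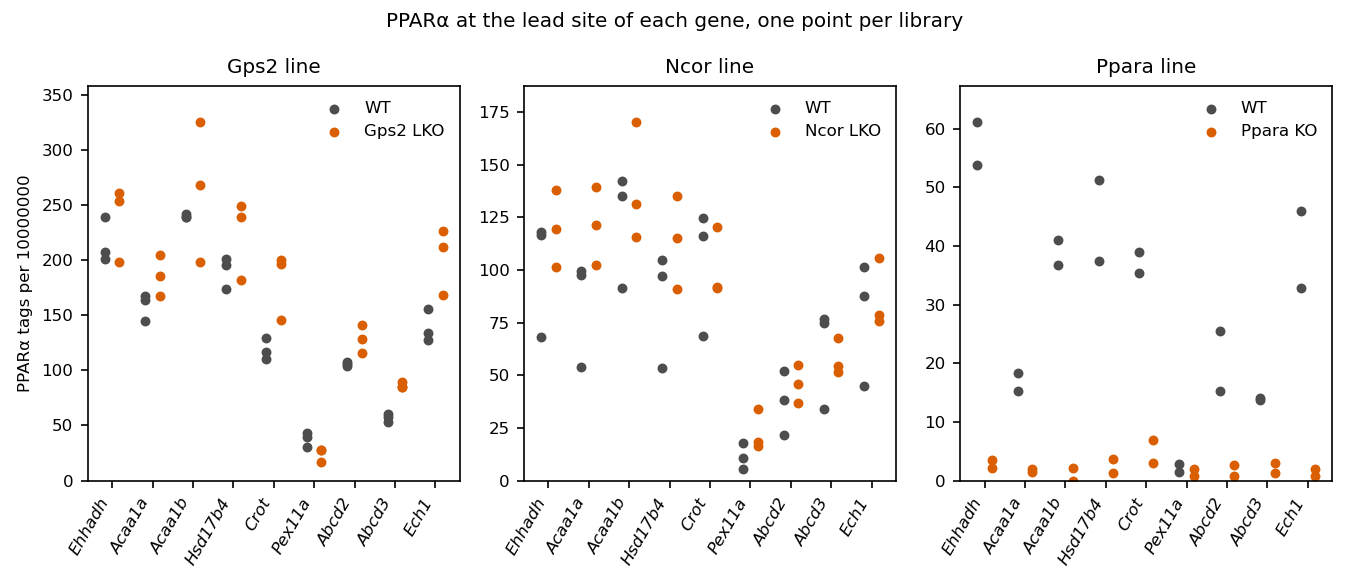
PPARα ChIP-seq tags per 10000000 total tags (vertical axis) at the lead site of each gene in the *Gps2*, *Ncor* and *Pparα* lines, with WT and knockout libraries as points. In the *Pparα* line the KO libraries lie between 0 and 6.87 and below the WT libraries at every gene but *Pex11a*, while in the *Gps2* line (WT counted as 1 sample) and the *Ncor* line no lead site passed the test.

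PPARα occupancy in *Gps2* LKO was above WT in value at 88 of 97 peaks of the 9 genes, and at 89.3% of all peaks. With the WT libraries counted as 1 sample, the test had 1 WT sample against 3 LKO libraries and took the WT sample to vary like the LKO libraries. In it 2 of the 97 were called higher and none lower (2.51% of all 102519 peaks were called higher and 0.0224% lower), and the median log2 fold change was 0.58 against 0.61 over all peaks. DESeq2 called none of the 97 (0.148% of all peaks higher), and 30 (30.9%) had an unadjusted p under 0.05 by edgeR, against 22.3% of all peaks. At *Ehhadh* PPARα was 239, 207 and 201 tags per 10000000 in WT and 261, 254 and 198 in LKO (0.14, SE 0.27, adjusted p = 0.76). At *Acaa1b*, whose RNA rose, it was 242, 239 and 239 in WT against 325, 268 and 198 in LKO (0.12, SE 0.28, adjusted p = 0.79). LKO replicate 3 lay below the WT libraries at these sites, and the groups overlapped. At *Abcd2* the values were 108, 105 and 104 in WT and 141, 129 and 116 in LKO (0.27, SE 0.28, adjusted p = 0.54). At *Crot*, whose RNA fell, they were 116, 129 and 110 in WT and 197, 200 and 145 in LKO (0.58, SE 0.28, adjusted p = 0.20), and at *Pex11a* 30.4, 39.9 and 42.8 in WT and 27.6, 17.1 and 27.6 in LKO (-0.65, SE 0.36, adjusted p = 0.26). The libraries of *Abcd2*, *Crot*, *Abcd3* and *Ech1* lay higher in LKO without overlap and those of *Pex11a* lower, but no lead site passed this test with 1 WT sample. The separation is a description, since the WT libraries counted as 1 sample and 89.3% of all peaks had values above WT. The share of all peaks without overlap is not given.

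The 2 PPARα peaks called higher were both distal peaks of *Abcd2*. The peak at chr15:90955126-90955332, 67209 bp downstream of the TSS and beyond the gene's end, had 6.33, 6.65 and 4.51 tags per 10000000 in WT and 25.3, 16.1 and 28.1 in LKO (log2 fold change 1.99, SE 0.568, adjusted p = 0.033). The peak at chr15:91112119-91112311, at -89777 bp and in an intron of another gene, had 6.33, 2.85 and 5.64 in WT and 19.5, 25.6 and 25.2 in LKO (2.29, SE 0.597, adjusted p = 0.018). WT and LKO did not overlap at either peak. Both calls were lost with TMM scaling, which set the median of all peaks from 0.61 to 0.02, and without LKO replicate 3 (1.78, adjusted p = 0.15, and 2.22, adjusted p = 0.078). Counting the WT libraries as 3 gave 46 of the 97 peaks higher and 1 lower, with 36.6% of all peaks higher and 0.3% lower.

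In *Ncor* LKO no PPARα peak of the 9 genes was called among 88 by edgeR or DESeq2, 4 (4.55%) had an unadjusted p under 0.05 against 5.23% of all peaks, and 0.151% of all 86168 peaks were called higher and 0.0453% lower. The median log2 fold change was 0.18 against 0.10 over all peaks. At *Crot*, PPARα in LKO was 91.8, 91.2 and 120 tags per 10000000 against 125, 116 and 68.5 in WT. At *Abcd2* it was 45.6, 36.8 and 54.7 against 38.2, 51.8 and 21.9. At *Pex11a* it was 18.3, 16.5 and 34.0 against the WT values above, with a log2 fold change of 1.02 (adjusted p = 0.96), the largest of the lead sites. The groups overlapped at each of these sites, and WT replicate 3, the library with few tags in peaks, was the lowest WT library in each.

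GPS2 peaks of the *Gps2* line overlapped 8 of the 9 lead sites. In the WT library of the *Gps2* line, GPS2 was highest at *Acaa1b*, at 61.9 tags per 10000000 (95% exact Poisson interval 50.2 to 75.6), and *Ehhadh*, at 47.8 (37.5 to 59.9). *Abcd2* was low at 6.45 (3.09 to 11.9), and no GPS2 peak overlapped the *Pex11a* lead site. At the peak closest to the TSS, GPS2 was 21.9 (15.2 to 30.7) at *Abcd2* and 16.1 (10.4 to 23.8) at *Pex11a*. At the lead sites in the LKO library *Acaa1b* had 0.676 and *Ehhadh* 1.35, and *Hsd17b4*, *Crot*, *Abcd2* and *Ech1* had no tag. Of 57 GPS2 peaks 56 were at least 1 log2 unit lower in LKO, with counts under 3 set to 3 tags, as were 98.8% of all 49018 peaks (0.102% were higher). With 1 library per group there was no replicate check, and intervals here cover counting error only.

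GPS2 occupancy in *Ncor* LKO gave calls by DESeq2 and none by edgeR. None of 71 peaks passed the edgeR test and 36 (50.7%) were lower at an unadjusted p under 0.05, against 34.3% of all peaks at that p in either direction, with 0.0338% of all 56278 peaks called lower and 0% higher. DESeq2 gave an adjusted p to 46 of the 71 and called 23 of them lower, as it did 40% of all 24636 peaks with an adjusted p. The median log2 fold change was -1.31 against -1.12 over all peaks. At *Crot*, GPS2 was 97.8, 74.8 and 32.7 tags per 10000000 in WT and 20.7, 18.9 and 13.0 in LKO (-1.96, SE 0.622, adjusted p = 0.076), the only lead site without overlap. At *Acaa1b* it was 81.2, 72.3 and 24.7 in WT against 28.1, 24.8 and 18.7 in LKO (-1.31, adjusted p = 0.12). At *Ehhadh* it was 69.6, 56.5 and 11.8 in WT against 17.7, 13.6 and 16.1 in LKO (-1.53, SE 0.617, adjusted p = 0.093). WT replicate 3 was the lowest WT library at each of these sites, and without it 57 of the 71 peaks were called lower, with 59.1% of all peaks lower and 0.398% higher in that fit.

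In *Pparα* KO, 5.19% of all GPS2 peaks had a log2 fold change above 0. All 42 GPS2 peaks of the 9 genes were below 0, with a median of -1.08 against -0.93 over all peaks. By edgeR 1 of them was called lower (0.273% of all 27842 peaks were lower and 0% higher), 19 (45.2%) had an unadjusted p under 0.05 against 23% of all peaks, and DESeq2 called none. The called peak was the *Acaa1b* promoter (chr9:119066193-119066495), with 7.63, 7.80 and 34.6 tags per 10000000 in WT and 2.91, 3.03 and 1.44 in KO (-2.71, SE 0.658, adjusted p = 0.0262). WT replicate 3 was the highest library by far, and without it the value was -1.62 (adjusted p = 0.387). At the *Ehhadh* lead site GPS2 was 23.6, 22.8 and 39.2 in WT and 21.8, 16.6 and 5.05 in KO (-0.97, adjusted p = 0.245). At the *Abcd2* promoter it was 8.33, 9.10 and 15.4 in WT against 2.18, 1.51 and 2.88 in KO (-2.26, SE 0.69, adjusted p = 0.105). Neither site passed the test, although WT and KO did not overlap at either, and GPS2 replicate 3 of both groups stood apart in its tags in peaks.

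NCOR occupancy in *Gps2* LKO was not called different from WT at any of the 9 genes. None of their 78 NCOR peaks passed the test by edgeR or DESeq2, 3 (3.85%) had an unadjusted p under 0.05 against 2.79% of all peaks, and 0.0124% of all 80813 peaks were called higher and 0.00495% lower. The median log2 fold change was -0.07 against -0.03 over all peaks. At *Crot*, NCOR was 97.7, 82.1 and 60.3 tags per 10000000 in WT and 84.0, 97.1 and 34.2 in LKO (-0.16). At *Acaa1b* it was 86.8, 101 and 51.0 in WT against 78.4, 113 and 43.4 in LKO (-0.03). At *Abcd2* it was 29.4, 13.1 and 8.70 in WT against 22.5, 31.4 and 14.1 in LKO (0.39, SE 0.477). The groups overlapped at every lead site with an NCOR peak, with SEs near that of *Abcd2*, and smaller changes were not detectable with this spread.

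NCOR in *Pparα* KO was below WT in value at 88 of the 102 peaks of the 9 genes, while 22.9% of all peaks had a value above 0. Of the 102, 12 were called lower and none higher (2.51% of all 115042 peaks were called lower and 0.136% higher). The median log2 fold change was -0.47 against -0.32 over all peaks. At an unadjusted p under 0.05 by edgeR 35 were lower and none higher (34.3%, against 15.5% of all peaks in either direction). DESeq2 called 8 (1.19% of all peaks lower). *Abcd2* held 6 of the 12, and all 18 of its NCOR peaks had values below 0. At its lead site NCOR was 13.8, 11.2 and 24.4 tags per 10000000 in WT and 1.63, 2.02 and 2.13 in KO (-3.02, SE 0.511, adjusted p = 1.46e-06). At the peak 1887 bp downstream of the TSS it was 20.3, 20.6 and 55.6 in WT against 7.36, 6.73 and 6.40 in KO (-2.22, adjusted p = 2.75e-06). At the promoter peak it was 50.4, 72.2 and 104 in WT against 45.8, 45.1 and 19.9 in KO (-1.04, adjusted p = 0.00236). The KO libraries were below the WT libraries at each of these 3 peaks, and the call at the promoter was lost in 4 alternatives.

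**Figure D3:**
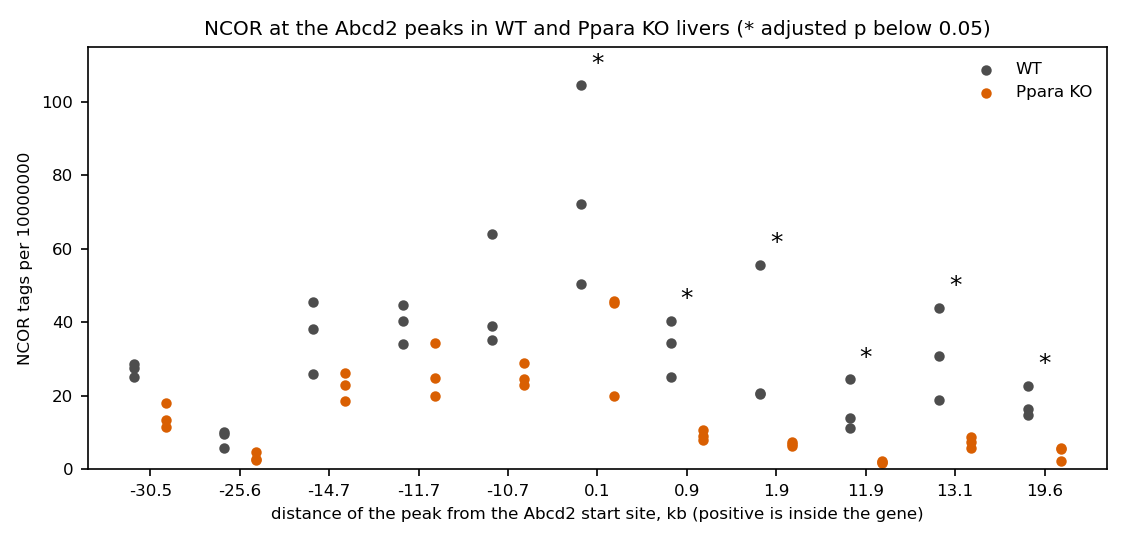
NCOR ChIP-seq tags per 10000000 total tags (vertical axis) at 11 NCOR peaks of *Abcd2*, placed by distance from the TSS (kb), in WT and *Pparα* KO libraries. Stars mark the 6 peaks called lower by edgeR; at the lead site WT libraries had 11.2 to 24.4 and KO libraries 1.63 to 2.13.

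Other called peaks lay in or near *Ehhadh*, *Acaa1b* and *Ech1*. At *Ehhadh* the peak at chr16:21782066-21782233, 5758 bp downstream of the TSS, had 45.5, 53.3 and 53.9 tags per 10000000 in WT and 8.17, 13.5 and 12.1 in KO (-2.15, SE 0.331, adjusted p = 4.98e-08). The *Ehhadh* lead site, less than 1000 bp away, had 116, 92.0 and 108 in WT and 105, 94.9 and 74.0 in KO (-0.21, SE 0.188, adjusted p = 0.62). Of these neighbouring peaks in intron 1, the first was called lower without overlap between the groups, and the lead site overlapped. The difference between these peaks was not tested. PPARα occupancy fell at both in *Pparα* KO, and at the first it was 21.2 and 21.4 tags per 10000000 in WT against 1.37 and 0.733 in KO (-4.21, adjusted p = 3.87e-05). In intron 3 of *Acaa1b*, the peak at chr9:119064658-119064804 had 52.8, 46.4 and 47.2 in WT and 17.2, 24.9 and 15.7 in KO (-1.33, SE 0.305, adjusted p = 0.00156), against 122, 103 and 118 in WT and 93.2, 102 and 79.0 in KO at its lead site (-0.33, adjusted p = 0.39). Upstream of *Ech1*, the peak at chr7:29608980-29609110 had 15.4, 6.02 and 18.5 in WT and 0.817, 1.35 and 2.85 in KO (-2.91, adjusted p = 3.87e-05). The KO libraries were below the WT libraries at both peaks. Of the 12 called NCOR peaks, 6 overlapped a PPARα peak of the same line named for the genes described here. At 4 of those 6 PPARα was called lower as well. Of all 55 PPARα peaks named for these genes in that line, 28 were called lower. The same overlap for NCOR peaks that were not called is not given, and a link between the calls was not tested. The *Crot* lead site, where NCOR was highest, had 182, 114 and 176 in WT and 167, 180 and 159 in KO (0.10), which overlapped. The remaining called peaks, 1 more each of *Ehhadh*, *Hsd17b4* and *Ech1*, were lost in 3 or more alternatives, whereas 8 of the 12 calls held in every alternative.

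Active histone marks in *Gps2* LKO were read over broad peaks, 2 libraries per group. No tested peak of either mark was named for *Pex11a*, so the counts of peaks cover the other genes. H3K4me3, a mark of active promoters, was called higher in 3 of 10 peaks of the 9 genes and lower in none, with 0.798% of all peaks called higher and 0.118% lower and medians of 0.22 for the members and 0.04 for all. Over the *Acaa1b* domain (chr9:119058558-119076721), which spans the promoter and the lead PPARα site, it was 682 and 649 tags per 10000000 in WT against 1308 and 1205 in LKO (log2 fold change 0.92, SE 0.068, adjusted p = 2.30e-05). The LKO libraries were well above the WT libraries, and the call held in every alternative (0.86 to 0.97). At the *Crot* promoter (chr5:8988060-9002079), whose RNA fell, H3K4me3 was also higher, at 954 and 844 in WT against 1177 and 1103 in LKO (0.34, SE 0.072, adjusted p = 0.043). The peak over the distal *Crot* lead site (chr5:9027305-9049353) had 236 and 184 in WT against 342 and 304 in LKO (0.62, SE 0.129, adjusted p = 0.040). Both *Crot* calls were lost without WT replicate 2 or LKO replicate 1, with adjusted p up to 0.28 and 0.29. The *Abcd2* promoter had 299 and 351 in WT against 423 and 432 in LKO (0.40, SE 0.093, adjusted p = 0.080).

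H3K27ac, a mark of active promoters and enhancers that histone deacetylase 3 can remove, was not called in *Gps2* LKO at any of 39 tested peaks of the 9 genes by edgeR, with 1.21% of all peaks higher and 0.212% lower. Of the 39, 16 (41%) had an unadjusted p under 0.05, 14 of them higher, against 14.6% of all peaks, and DESeq2 called 1 (1.49% of all peaks higher). The median log2 fold change was 0.24 against 0.06 over all peaks. At the *Abcd2* promoter H3K27ac was 100 and 135 tags per 10000000 in WT against 181 and 251 in LKO (0.87, SE 0.187, adjusted p = 0.074), and all 9 *Abcd2* peaks had values above 0, as did 61.1% of all peaks. At the *Crot* promoter it was 705 and 728 in WT against 957 and 825 in LKO (0.31, SE 0.094, adjusted p = 0.163). At *Ehhadh* it was 712 and 765 in WT against 744 and 789 in LKO (0.05, adjusted p = 0.84). *Abcd2* and *Crot* did not overlap between groups and *Ehhadh* did.

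Loss of the corepressors themselves gave an *Ehhadh* difference. In *Ncor* LKO, H3K27ac was called higher in 2 of 56 peaks of the 9 genes (2.32% of all 68818 peaks were called higher and 0.801% lower, and DESeq2 called 3 of the 56, with 4.13% of all peaks higher). The *Ehhadh* peak (chr16:21778294-21795314), which covers the promoter and the lead PPARα site, had 637, 615 and 663 tags per 10000000 in WT and 1197, 1270 and 1045 in LKO (log2 fold change 0.87, SE 0.0998, adjusted p = 0.0035). All LKO libraries were above all WT libraries, and the call held in every alternative. In *Smrt* LKO the same peak had 871, 994 and 1023 in WT and 850, 995 and 938 in LKO (-0.05, SE 0.090, adjusted p = 0.93), and edgeR and DESeq2 called none of the 56 peaks (5, or 8.93%, at an unadjusted p under 0.05 against 5.93% of all peaks, and 0% of all peaks called by edgeR in either direction). The *Ncor* effect on *Ehhadh* exceeded the *Smrt* effect by 0.93 (SE 0.134, adjusted p = 0.0122 by an edgeR test of the difference), 1 of the 56 peaks called for that difference and held in every alternative, with 0.33% of all peaks called higher and 0.0959% lower. The second call in *Ncor* LKO, a peak at -55004 bp from the *Abcd3* TSS (chr3:121566265-121580009), had 887, 811 and 785 in WT and 1106, 1225 and 1074 in LKO (0.46, SE 0.095, adjusted p = 0.032) and was lost in 6 alternatives. The *Abcd2* promoter, with 88.7, 131 and 250 in WT and 134, 79.3 and 71.8 in *Ncor* LKO (-0.72, adjusted p = 0.35), overlapped between groups. In the *Smrt* line the same promoter had 527, 605 and 575 in WT and 549, 578 and 507 in LKO (-0.06), so that its WT level was above that of every WT library of the *Ncor* line. Line and batch of preparation cannot be told apart in that comparison, which was not tested.

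**Figure D4:**
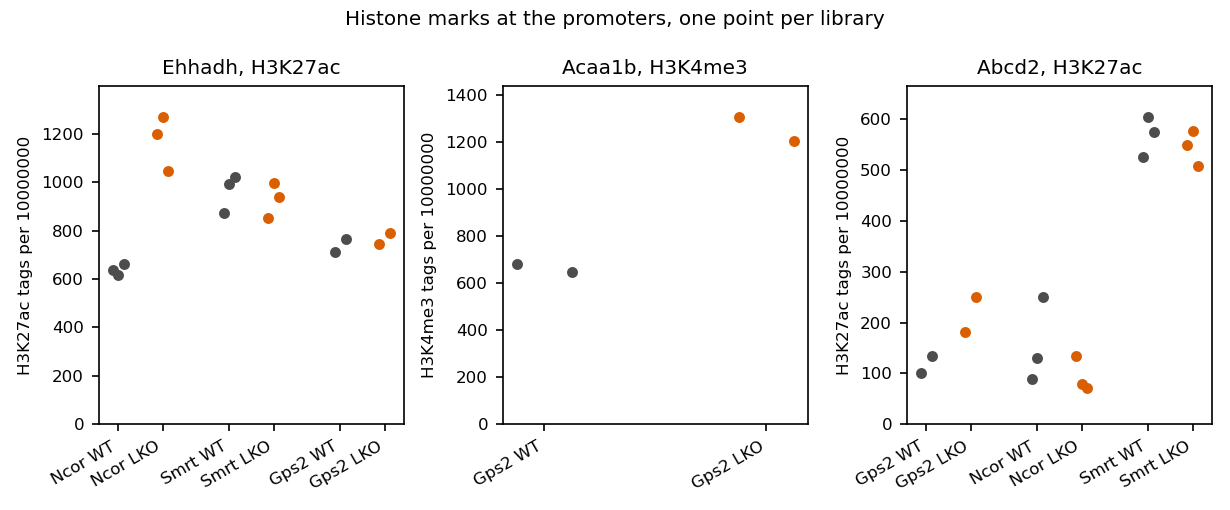
Histone mark tags per 10000000 total tags (vertical axis) per library: H3K27ac at *Ehhadh* and *Abcd2* in the *Ncor*, *Smrt* and *Gps2* lines and H3K4me3 at *Acaa1b* in the *Gps2* line. At *Ehhadh* the *Ncor* LKO libraries lie between 1045 and 1270, all above the WT libraries at 615 to 663, and at *Acaa1b* the *Gps2* LKO libraries lie at 1205 and 1308, above WT at 649 and 682.

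RNA polymerase II was profiled in 1 WT and 1 *Gps2* LKO library, so its values had no replicate check. The *Acaa1b* promoter had 235 tags per 10000000 in WT (95% exact Poisson interval 208 to 265) and 210 in LKO (185 to 238), with RNA that was higher in LKO. The *Abcd2* promoter had 40.3 (29.6 to 53.6) and 47.9 (36.3 to 62.1), and the *Crot* promoter 207 and 208. The intervals of WT and LKO overlapped at each of these genes. A change of at least 1 log2 unit was seen at 5 of 35 peaks, 3 higher and 2 lower, with 7.66% of all 31434 peaks higher and 5.93% lower by that measure. The largest in level was the *Crot* lead site, at 13.7 (7.85 to 22.3) in WT and 33.6 (24.0 to 45.8) in LKO.

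Setting the RNA change in *Gps2* LKO against occupancy gave no common order over the 9 genes. Spearman's rho of the RNA log2 fold change with the WT level at the lead site was 0.083 for PPARα in the *Ncor* line (n = 9) and 0.23 in the *Pparα* line (n = 9). It was -0.38 for GPS2 in the *Ncor* line (n = 8). For NCOR it was -0.57 in the *Gps2* line (n = 8) and -0.083 in the *Pparα* line (n = 9). With the change in PPARα at the lead site it was 0.017 (n = 9), with that in NCOR 0.50 (n = 8), and with promoter H3K27ac and H3K4me3 0.37 each (n = 9). The *Pex11a* promoter values among these, -0.14 and 0.09, came from an overlapping peak not named for it. The values with n = 8 lack *Pex11a*, the gene with the largest fall in RNA. Values with n = 8 and n = 9 therefore cover different genes, and a difference between them is not one between lines. The points are single genes measured in shared libraries, so these values describe the 9 genes only. *Abcd2* and *Acaa1b*, whose RNA rose most, had lead sites at opposite ends of GPS2 occupancy, 6.45 against 61.9 tags per 10000000. *Crot* and *Ehhadh*, each with high PPARα, GPS2 and NCOR at the lead site, had RNA log2 fold changes of -0.33 and 0.11. *Pex11a*, with the lowest PPARα level and no GPS2 or NCOR peak at its lead site in the *Gps2* line, had the largest fall. These levels are of the lead sites only. At the peak closest to the TSS, GPS2 in that line was 21.9 at *Abcd2*, 28.4 at *Acaa1b* and 16.1 at *Pex11a*, and *Pex11a* had 2 NCOR peaks.

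**Figure D5:**
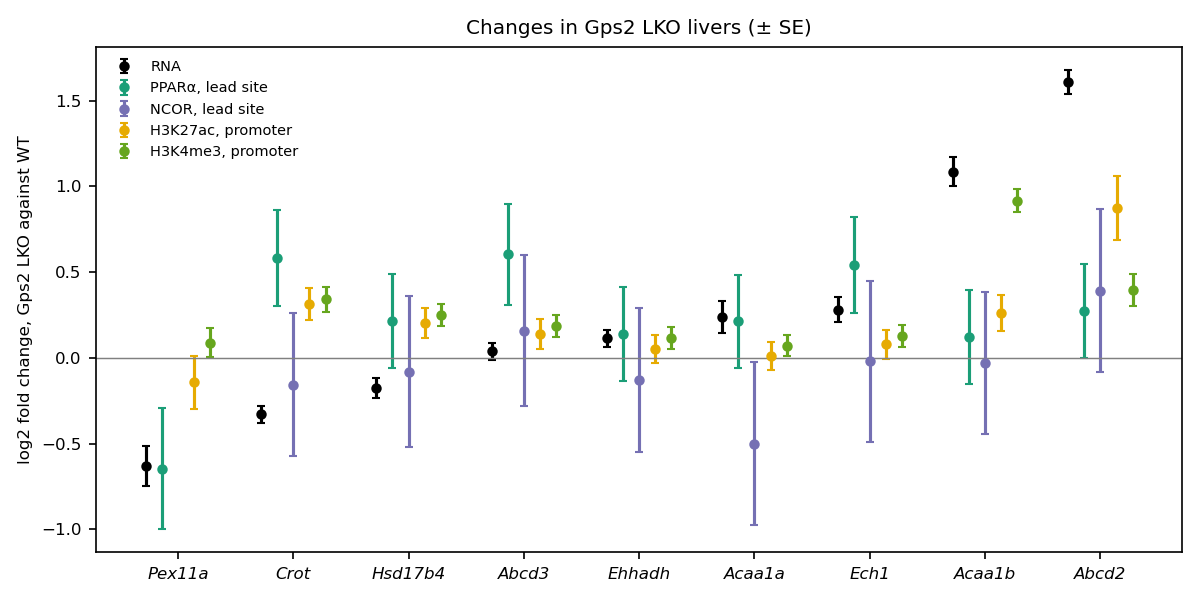
Log2 fold change, *Gps2* LKO against WT (vertical axis), of RNA, lead-site PPARα and NCOR, and promoter H3K27ac and H3K4me3 for each gene, with bars of 1 SE and genes ordered by RNA change from *Pex11a* (-0.63) to *Abcd2* (1.61). PPARα and NCOR values do not follow that order, and H3K4me3 is highest at *Acaa1b* (0.92). The histone values of *Pex11a* are from an overlapping peak not named for it.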

How the data were processed

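RNA-seq and ChIP-seq of mouse liver were analysed from the processed files. For RNA-seq the table holds raw read counts per gene, which the authors deposited without normalization, with an exon length per gene; its columns of fold changes, p-values, FDR and calls from the authors' own test were not used. The ChIP-seq tables give raw tags counted in merged peaks with HOMER, and the authors deposited these counts with each library's total tags in the header; no per-sample tag column was left unmapped (0 columns). The deposited peak lists carry a constant score of 1 per peak, and only their positions were used, to keep histone peaks of the *Gps2* line found in at least 2 libraries of a mark. The submitters' processing notes name Bowtie2, HISAT2, SAMtools, featureCounts and HOMER and the builds mm9, GRCm38 and mm10 with no role and no version. The files' coordinates are mm9, and gene positions and sequences were read from the mm9 (NCBIM37) genome. The labels give fixation with disuccinimidyl glutarate and formaldehyde for all ChIP-seq, while the methods of the study give formaldehyde alone for histone marks.

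Genes were tested with the edgeR 4.0.16 quasi-likelihood test in R 4.3.3 (TMM scaling, edgeR's filter on low counts), and peaks with the same test scaled to total tags, on peaks of at least 1 tag. Called means an adjusted p below 0.05 (Benjamini-Hochberg over the whole table); SE is of the log2 fold change. Where each group had 1 library, exact Poisson intervals (95%) cover counting error alone, and called means a change of at least 1 log2 unit. Levels are CPM on TMM-scaled libraries, RPKM or tags per 10000000 total tags. The exon length correction was a lowess fit (span 0.3) of each library's counts on exon length, entered as an offset. Alternatives were DESeq2 1.42.0 and its size factors, TMM for peaks, no filter or a mean of at least 10 tags, a replicate block, peaks within 10000 bp of the TSS and single libraries left out. Counting the PPARα WT libraries of the *Gps2* line as 3, and leaving out GPS2 replicate 3 of both groups of the *Pparα* line, were added after seeing the data. Tables were read with the data.table package (1.17.8) and plots drawn with matplotlib 3.10.9 in Python 3.11.15. The fitting steps were tested on simulated data.

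The 9 genes and the gene lists were chosen with earlier results of these data known. Named were the 9 genes, of the other peroxisomal genes the 3 largest rises and falls among called genes, the 5 genes most like *Ehhadh* in level among those with a mean of at least 100 normalized counts, and called peaks. *Gps2*, *Ppara* and *Ncor1* serve as checks. Some results are not reported here. The input libraries (2 of 74) were not used.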

Additional observations from a re-analysis of the deposited data

Results flagged for a closer look

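The RNA level of *Acaa1b* in *Gps2* LKO replicate 2, 613 CPM, lay far below the other LKO libraries (807 to 823 CPM), with a gap of 0.923 of the group's range, above Dixon's critical value. *Ppara* in the same library, 349 CPM, lay far above the other LKO libraries, with a gap of 0.850 of the range. These were found among 28 groups of 4 libraries examined, of which chance gives about 1 in 20. Without this library *Acaa1b* had a log2 fold change of 1.16 and stayed called. This library also differed most from the other LKO libraries over all genes, and its part in these values was not tested.

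H3K27ac at *Ehhadh* responded differently to loss of *Ncor* and of *Smrt*: the log2 fold changes differed by 0.93 (SE 0.134, adjusted p = 0.0122, edgeR test of the difference over 12 libraries), and every *Ncor* LKO library lay above its WT libraries while *Smrt* LKO overlapped WT. The lines share a peak table but no control libraries.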

How the results depend on the processing

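Of the RNA calls, those of *Abcd2*, *Acaa1b*, *Crot* and *Pex11a* held in each alternative run. *Acaa1a* lost its call with DESeq2 and its size factors (0.22 each), with no filter (0.23), with the exon length offset (0.069) and with that offset and a replicate block (0.064), *Ech1* with the offset (0.022) and offset and block (0.020), and *Ehhadh* gained one with both (0.11 each). Leaving out 1 library gave 5 to 7 members called and log2 fold changes of 0.16 to 0.31 for *Acaa1a*, -0.22 to -0.16 for *Hsd17b4* and -0.0057 to 0.053 for *Abcd3*, which reversed without LKO replicate 2 (-0.0057).

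PPARα peaks called in *Gps2* LKO (2) were 0 with TMM, 0 with DESeq2, 6 with a mean of at least 10 tags, 47 with the WT libraries counted as 3 (47 with a replicate block, and 10 with TMM, 2 higher and 8 lower), 0 within 10000 bp and 0 to 6 on leaving out an LKO library. TMM gave 4 in *Ncor* LKO. In *Pparα* KO (28) TMM gave 14, the replicate block 0, peaks within 10000 bp 16 and omissions 0 to 26. GPS2 peaks in *Ncor* LKO (0) were 1 with TMM, 23 with DESeq2, 14 with at least 10 tags, 25 with the replicate block and 0 to 57 on omissions; in *Pparα* KO (1) they were 0 with TMM, DESeq2, the block and without replicate 3 of both groups, 2 with at least 10 tags and 0 to 1 on omissions. NCOR in *Pparα* KO (12) gave 9 to 12 on omissions and 10 with TMM, 1 higher and 9 lower. H3K27ac in *Gps2* LKO (0) gave 1 with DESeq2, 6 with the block and 0 to 7 on omissions, H3K4me3 (3) gave 5 with the block and 1 to 3, and H3K27ac in *Ncor* LKO (2) gave 1 with the block, 1 within 10000 bp and 1 to 2. Of 57 GPS2 peaks in the *Gps2* line 34 were higher when tags in peaks served as the total, and 28 lower within 10000 bp. Within 10000 bp 1 RNA polymerase II peak changed. The search window of 1 lead site held DR1 with at most 2 mismatches. The causes were not tested. TMM sets the median of all peaks near 0 by construction. For GPS2 in the *Gps2* line, tags in peaks were 1095530 in WT and 45882 in LKO. Scaling to them raises the LKO values by construction.

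Replicate numbers did not pair the RNA libraries throughout (correlations of 0.036 to 0.163, where number 3 correlated better with another number). In the *Gps2* line same-number correlations were 0.239 for H3K4me3 and 0.179 for H3K27ac. For NCOR in the *Pparα* line they were -0.019, 0.255 and 0.271 for numbers 1, 2 and 3. Pairing is not excluded in these. The block changed no other call count by over 1.5 times. Arms of 2 or 3 libraries, unequal shares of tags in peaks and low counts at *Pex11a* and *Abcd2* limit what could be called.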
